A study of Mus musculus with 6 samples.

Results

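Heme is made from glycine and succinyl-CoA by a chain of enzymes that starts in the mitochondrion, runs through the cytosol and ends in the mitochondrion, and it is broken down by heme oxygenase and biliverdin reductase. The 9 genes described here encode enzymes of that chain. Alas1 (5-aminolevulinate synthase, the first and rate-limiting step), Alad, Uros, Urod, Cpox, Ppox and Fech (ferrochelatase, which inserts the iron) make heme, Hmox1 (heme oxygenase 1) opens it and Blvrb (biliverdin reductase B) reduces biliverdin. They were taken by name from the 27151 genes of the expression table. All 9 were found and all passed a mean level of 1 FPKM (fragments scaled to exon length and library size), which left 12181 genes for testing.

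Heme is the natural ligand of the REV-ERB receptors NR1D1 and NR1D2, nuclear receptors of the circadian clock that repress their targets with the corepressor NCoR and the deacetylase HDAC3. In liver cells, REV-ERB lowers heme synthesis through the coactivator PGC-1α and ALAS1, which closes a loop between ligand and receptor. Free heme in turn removes the repressor BACH1 from Hmox1 and lets NRF2 act there. In granulosa cells, the somatic cells around the oocyte, heme is also the cofactor of the cytochrome P450 enzymes that make steroids.

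The study compared 3 libraries of mouse granulosa cells given GSK4112, a synthetic NR1D1 agonist, with 3 libraries of control cells without it. The cells came out of punctured ovarian follicles and grew in culture for 24 h. A serum-free period of 12 h followed, and the agonist was then present or left out during 24 h, with fresh medium at 12 h intervals. The labels give no strain, age or number of animals and do not say whether libraries of a group came from separate cultures, so the spread behind each p-value is that between libraries and may be technical. The series' design text speaks of treatment in vivo, and the protocol describes cultured cells.

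The steps of the FPKM values implied 16559257 to 18158271 fragments per library. Of 12 granulosa markers 11 averaged at least 1 FPKM, and their sum was 2238 to 3005 FPKM in GSK4112 libraries and 3030 to 3672 FPKM in control libraries. These sums did not overlap and were lower in GSK4112 cells. Inha alone held most of each sum and overlapped, with 1370 to 2245 FPKM in GSK4112 and 1834 to 2173 FPKM in control libraries. Amh, a hormone of growing follicles, averaged under 1 FPKM, and the FSH receptor gene Fshr lay at 2.65 to 4.36 FPKM in GSK4112 and at 2.75 to 5.43 FPKM in control libraries. Red cell precursors, which make most of the body's heme, were near absent, since the 5 measured of 8 erythroid markers summed to 0.530 to 0.620 FPKM in GSK4112 and 0.346 to 0.779 FPKM in control libraries. The 8 macrophage markers summed to 16.3 to 37.0 FPKM in GSK4112 and 7.08 to 40.4 FPKM in control libraries, of which Lyz2 and Cd68 held most, while the defining genes Ptprc and Adgre1 did not exceed 0.130 FPKM and Cd163 was at 0 in 5 libraries. Cd68 was apart and higher in GSK4112 cells, with 5.69, 4.56 and 5.54 FPKM, against 4.47, 2.67 and 2.20 FPKM in control cells (log2 difference 0.64, adjusted p = 0.201 in limma). Ptprc was apart too, at 0.0440 to 0.0678 FPKM in GSK4112 and 0.0164 to 0.0331 FPKM in control libraries. Its values rest on 5 to 21 fragments per library. Lyz2, Adgre1 and Csf1r overlapped. Csf1r lay at 0.294 to 1.07 FPKM in GSK4112 and 0.258 to 0.823 FPKM in control libraries, with replicate 1 highest in each group. In both groups replicate 1 had higher mitosis, theca and stroma, and macrophage marker sums than replicates 2 and 3. The 8 theca and stroma markers summed to 132, 70.7 and 82.8 FPKM in GSK4112 replicates 1 to 3, against 240, 50.8 and 53.8 FPKM in control replicates 1 to 3. Of these 8, 2 averaged at least 1 FPKM, and Acta2 alone held most of each sum. Acta2 had 125, 63.7 and 76.9 FPKM in GSK4112 replicates 1 to 3, against 234, 44.5 and 46.9 FPKM in control replicates 1 to 3. The 10 mitosis genes summed to 108 FPKM in GSK4112 replicate 1, against 20.5 and 18.2 FPKM in GSK4112 replicates 2 and 3, and to 143 FPKM in control replicate 1, against 36.4 and 40.7 FPKM in control replicates 2 and 3.

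None of the 9 heme enzyme genes passed the test, but Uros, Ppox and Fech were higher in every GSK4112 library than in any control library. In limma, with p-values adjusted over all 12181 genes, 0 of 9 were called, against 1.03% of all genes, also 0 with the replicate number as a block, against 6.89% of all genes, and 3 of 9 had an unadjusted p under 0.05, against 17% of all genes. The same 3 were the members whose groups did not overlap, all of them higher in GSK4112 cells, where 15.7% of all genes had groups apart in that direction, and 0 of 9 were apart and lower, against 7.9% of all genes. The mean difference was above 0 for 7 of the 9, against 60.9% of all genes. The median log2 difference of the 9 genes was 0.29, beside 0.05 over all genes tested. In RNA from whole cultures, a change in the share of a cell type and a change in RNA per cell cannot be told apart.

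**Figure D1:**
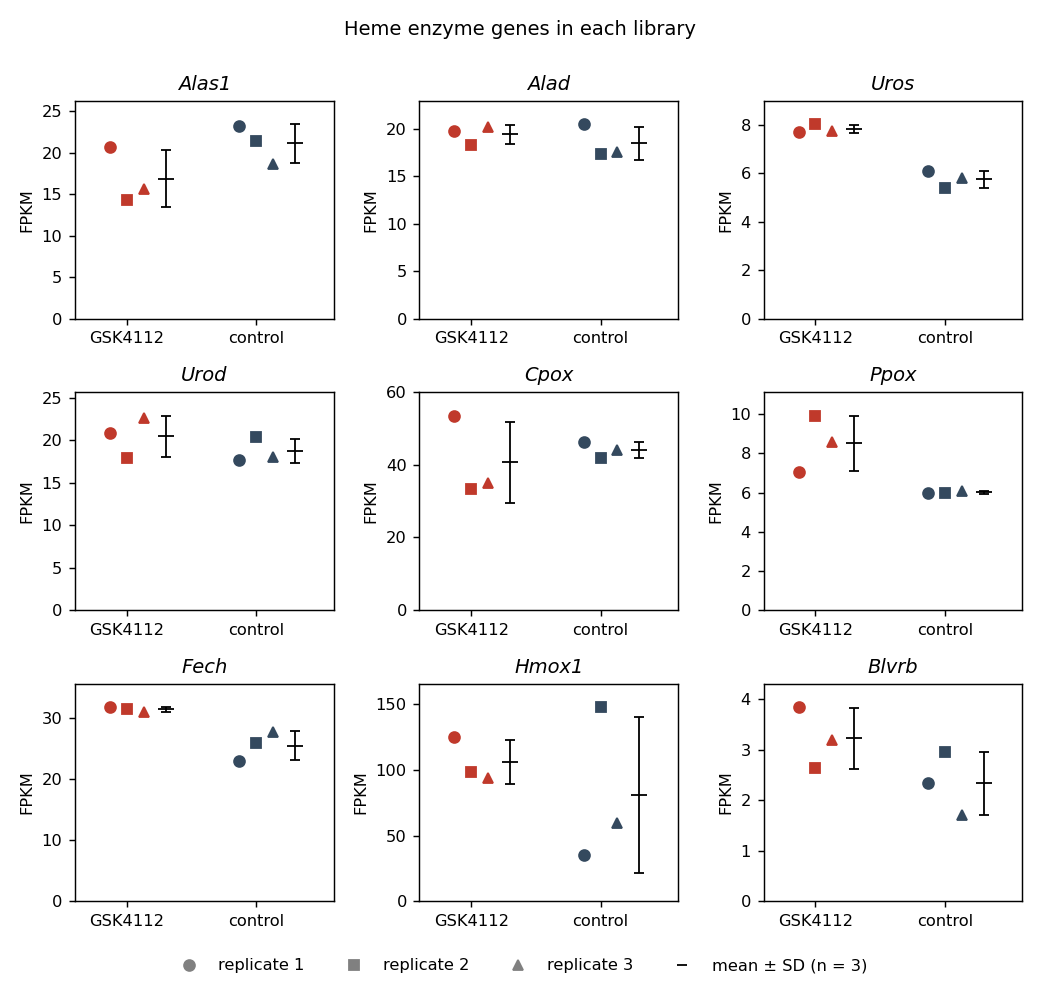
FPKM of the 9 heme enzyme genes in each GSK4112 (red) and control (dark) library, with the marker shape giving the replicate number and the bar the mean ± SD of 3 libraries. For Uros, Ppox and Fech every red point lies above every dark point, while Hmox1 spans 35.2 to 148 FPKM within the control group alone.

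Alas1 (ENSMUSG00000032786; GRCm38 chromosome 9, 106233455 to 106248654, minus strand), the entry step, had 20.8, 14.3 and 15.7 FPKM in GSK4112 replicates 1 to 3, against 23.3, 21.5 and 18.7 FPKM in control replicates 1 to 3. It was lower in GSK4112 in each of the 3 same-numbered pairs, yet the groups overlapped because GSK4112 replicate 1 lay above control replicate 3. The log2 difference was -0.32 ± 0.152 (SE of limma; 95% interval -0.68 to 0.04, adjusted p = 0.354). Replicate 1 held the highest Alas1 value of each group and also the highest mitosis sums given above, whose part in the result was not tested. The log2 difference ran between -0.47 (without GSK4112 replicate 1) and -0.21 (without GSK4112 replicate 2) when single libraries were left out, was -0.40 without both replicate 1 libraries, and was called in none of these. On the opposite strand, 4930500F10Rik shares 7.5% of the exon bases of Alas1, and it did not exceed 0.0982 FPKM in any library. The erythroid isozyme gene Alas2 lay at 0.0246 to 0.377 FPKM in GSK4112 and at 0.0688 to 0.225 FPKM in control libraries, under the filter on low values.

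The cytosolic steps that follow differed among themselves. Alad (ENSMUSG00000028393), which joins a pair of 5-aminolevulinate molecules into porphobilinogen, had 19.7, 18.3 and 20.2 FPKM in GSK4112 cells, against 20.5, 17.4 and 17.5 FPKM in control cells, and the groups overlapped (log2 difference 0.07 ± 0.0926, adjusted p = 0.74 in limma).

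Uros (ENSMUSG00000030979; chromosome 7, 133686243 to 133710072, minus strand) closes the ring. It had 7.73, 8.04 and 7.77 FPKM in GSK4112 cells, against 6.10, 5.40 and 5.80 FPKM in control cells. The GSK4112 values lay within 1.04-fold of each other and all were above the control values, with a ratio of means of 1.36. The log2 difference was 0.39 ± 0.0817 (95% interval 0.19 to 0.58), with the lowest adjusted p of the 9 genes (0.0882 in limma). An exact permutation test (two-sided) gave p = 0.1, its lowest possible value with 3 libraries per group. Any gene whose groups do not overlap reaches that value, so it adds nothing to the separation. Urod (ENSMUSG00000028684), which trims the side chains of the ring, had 20.9, 17.8 and 22.6 FPKM in GSK4112 cells, against 17.7, 20.3 and 18.0 FPKM in control cells, and the groups overlapped (log2 difference 0.12 ± 0.11, adjusted p = 0.615 in limma).

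The last steps take place in mitochondria. Cpox (ENSMUSG00000022742; chromosome 16), which makes protoporphyrinogen, was the most abundant of the synthesis genes, with 53.6, 33.4 and 35.0 FPKM in GSK4112 cells, against 46.3, 41.9 and 44.2 FPKM in control cells. GSK4112 replicate 1 was the highest of the 6 libraries and GSK4112 replicates 2 and 3 the lowest, so the group straddled the control values (log2 difference -0.15 ± 0.18, adjusted p = 0.724 in limma). The log2 difference of Cpox was -0.36 without GSK4112 replicate 1, -0.02 without GSK4112 replicate 2, -0.06 without GSK4112 replicate 3 and -0.32 without both replicate 1 libraries, and it was called in none of these.

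Ppox (ENSMUSG00000062729; chromosome 1, 171275990 to 171281186, minus strand), the oxidase that yields protoporphyrin, had 7.05, 9.90 and 8.58 FPKM in GSK4112 cells, against 5.95, 5.99 and 6.07 FPKM in control cells. The control libraries lay within 1.02-fold of each other and below all GSK4112 libraries. The log2 difference was 0.43 ± 0.122 (95% interval 0.14 to 0.72, adjusted p = 0.154 in limma, exact permutation p = 0.1). Leaving out both replicate 1 libraries gave 0.54 which passed the threshold (adjusted p = 0.0386 in limma). Ppox shares 17.5% of its exon bases with B4galt3 on the opposite strand, and the strand setting of the counts is not given. B4galt3 had 5.29, 4.94 and 5.65 FPKM in GSK4112 cells, against 5.94, 4.58 and 5.21 FPKM in control cells, and its groups overlapped. How reads in the shared bases were assigned was not tested.

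Fech (ENSMUSG00000024588; chromosome 18, 64452914 to 64490251, minus strand), which inserts ferrous iron into protoporphyrin, had 31.8, 31.6 and 31.0 FPKM in GSK4112 cells, against 23.0, 25.9 and 27.8 FPKM in control cells. The GSK4112 values were within 1.03-fold of each other, and the groups did not overlap. The log2 difference was 0.29 ± 0.0886 (95% interval 0.08 to 0.51, adjusted p = 0.172 in limma, exact permutation p = 0.1). Of the longest Fech transcript, 20% matches the gene Gm48541 at 95% identity or more, so part of its reads is uncertain. With 5777 to 7460 fragments per library Fech was the most deeply covered of the 9 genes.

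**Figure D2:**
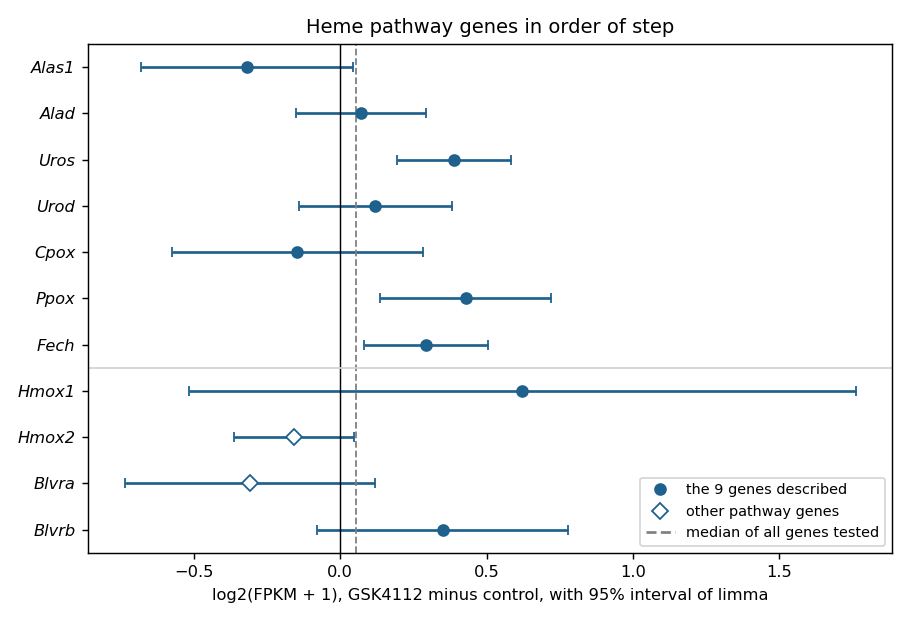
Log2 difference of log2(FPKM + 1), GSK4112 minus control, with the 95% interval of limma, for 11 tested genes of the pathway, in order of step (synthesis above the gray line, breakdown below it). The intervals of Uros, Ppox and Fech lie above 0, those of the other 8 genes include 0, and the dashed line marks the median of all genes tested (0.05).

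RefSeq promoter windows (GRCm38.p6) of 250 bases before the most upstream listed start were matched for 10 of the 13 pathway genes. Fech and Hmox1 were not matched. They were searched on both strands for the E-box CACGTG, bound by the clock activators CLOCK and BMAL1, for the half-site AGGTCA that REV-ERB binds, and for TGACNNNGC, the core of the element that NRF2 and BACH1 share. The windows of the pair with separate groups that could be matched, Uros (chr7:133709296-133709545, minus strand) and Ppox (chr1:171281187-171281436, minus strand), are shown beside Urod (chr4:116994414-116994663, minus strand), a step whose groups overlapped. They are written 5′ to 3′ along the gene, with E-boxes in capitals.
Uros: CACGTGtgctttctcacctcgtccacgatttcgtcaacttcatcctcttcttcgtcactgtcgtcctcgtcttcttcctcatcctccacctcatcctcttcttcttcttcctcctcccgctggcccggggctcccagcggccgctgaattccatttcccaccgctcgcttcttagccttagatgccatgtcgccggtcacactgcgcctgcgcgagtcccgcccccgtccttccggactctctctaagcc
Ppox: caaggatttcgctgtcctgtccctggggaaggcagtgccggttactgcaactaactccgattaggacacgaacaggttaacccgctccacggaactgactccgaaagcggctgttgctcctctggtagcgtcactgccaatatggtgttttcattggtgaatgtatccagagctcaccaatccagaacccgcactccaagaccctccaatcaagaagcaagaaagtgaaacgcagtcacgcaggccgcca
Urod: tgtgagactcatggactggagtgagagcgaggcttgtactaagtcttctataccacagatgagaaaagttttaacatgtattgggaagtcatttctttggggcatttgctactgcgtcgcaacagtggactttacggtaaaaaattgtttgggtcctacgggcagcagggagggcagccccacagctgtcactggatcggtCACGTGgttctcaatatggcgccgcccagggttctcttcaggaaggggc
An E-box was found in 3 of the 10 windows, those of Alad, Uros and Urod, beginning 105, 250 and 49 bases before the start. The Uros gene of GENCODE M21 reaches 133710072, so the Uros window lies inside it. The windows of Alas1 and Hmox2 also lie inside their genes, and that of Alas2 does in part. Over 32841 RefSeq windows of this length, 6.02% held one. The half-site AGGTCA was found in 1 of the 10, that of Alas2, against 14% of all windows, and TGACNNNGC in 1 of the 10, that of Blvra, against 10.2%. The Ppox window held none of these letters, and the Uros window overlaps the first exon of Bccip on the other strand. Of the genes with an E-box, Uros had groups that were apart, while those of Alad and Urod overlapped.

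The later steps were set against Alas1 in the same library, a comparison chosen after the values were seen and given without a test. Their mean ratios to Alas1 were higher in GSK4112 cells. Alas1 itself averaged 16.9 FPKM in GSK4112 and 21.1 FPKM in control cells, and this lower denominator raises every ratio. In their own FPKM, Alad and Urod overlapped between the groups and Cpox averaged lower in GSK4112 cells. Fech stood at 1.53, 2.21 and 1.98 times the Alas1 level in GSK4112 replicates 1 to 3, against 0.987, 1.21 and 1.49 times in control replicates 1 to 3. The ratio of Ppox to Alas1 averaged 0.526 ± 0.177 in GSK4112 cells and 0.287 ± 0.0353 in control cells (SD, n = 3 each), and that of Uros to Alas1 averaged 0.477 ± 0.0961 in GSK4112 cells and 0.275 ± 0.0315 in control cells. For Alad and Urod the ratios did not overlap between the groups either, and for Cpox they did. The share of all genes whose ratio to Alas1 is apart was not counted, so these ratios cannot be read as particular to heme enzymes. All 6 ratios share the Alas1 values as denominator, so they are not independent of each other, and a ratio within a library does not depend on its scaling. Summed over the 7 synthesis genes, the levels were 162, 133 and 141 FPKM in GSK4112 cells, against 143, 138 and 138 FPKM in control cells, and overlapped.

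**Figure D3:**
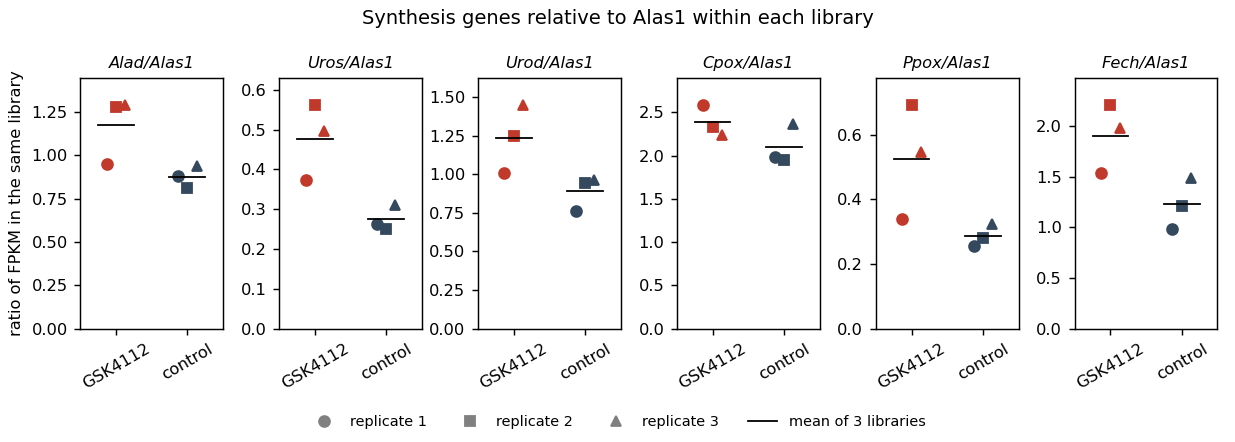
Ratio of the FPKM of each later synthesis gene to that of Alas1 in the same library, for GSK4112 (red) and control (dark) libraries, with the line at the mean of 3 libraries and the marker shape giving the replicate number. The ratios of Alad, Uros, Urod, Ppox and Fech are higher in each GSK4112 library than in any control library, and those of Cpox overlap. The share of all genes with such a separation was not counted.

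On the breakdown side, Hmox1 (ENSMUSG00000005413; chromosome 8, 75093621 to 75100589, plus strand) varied more between control libraries than between the groups. It had 125, 98.5 and 93.8 FPKM in GSK4112 replicates 1 to 3, against 35.2, 148 and 59.4 FPKM in control replicates 1 to 3. The control values spanned 4.20-fold and the GSK4112 values 1.33-fold, and control replicate 2 was the highest of the 6 libraries. The same-numbered pairs gave ratios of 3.55, 0.666 and 1.58. The log2 difference of 0.62 ± 0.477 had a 95% interval of -0.52 to 1.76 (adjusted p = 0.551 in limma). It was 1.18 without control replicate 2, 0.16 without control replicate 1 and 0.03 without both replicate 1 libraries, so single control libraries set its size. In the control group the macrophage marker sums were 40.4 FPKM in replicate 1 (lowest in Hmox1), 13.3 FPKM in replicate 2 (highest in Hmox1) and 7.08 FPKM in replicate 3. In GSK4112 replicates 1 to 3 they were 37.0, 16.3 and 18.7 FPKM, and replicate 1 was highest in both the sum and Hmox1. The part of macrophages in the Hmox1 values was not tested.

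Hmox2, the constitutive heme oxygenase, had 17.1, 17.9 and 18.5 FPKM in GSK4112 cells, against 21.5, 20.1 and 18.4 FPKM in control cells (log2 difference -0.16, adjusted p = 0.406 in limma), and shares 40.2% of its exon bases with Cdip1 on the opposite strand. Blvrb (ENSMUSG00000040466; chromosome 7, 27447978 to 27466144, plus strand) was the scarcest of the 9, with 3.85, 2.65 and 3.18 FPKM in GSK4112 cells, against 2.34, 2.96 and 1.71 FPKM in control cells. Its groups overlapped (log2 difference 0.35 ± 0.18, 95% interval -0.08 to 0.78, adjusted p = 0.38 in limma), and with 79 to 181 fragments per library it had the largest counting error of the 9. Blvra, which encodes the major biliverdin reductase of adult tissue, had 5.13, 3.58 and 4.85 FPKM in GSK4112 cells, against 7.47, 5.21 and 4.91 FPKM in control cells (log2 difference -0.31, adjusted p = 0.435 in limma).

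By mean FPKM, a level per length, the order in GSK4112 cells was Hmox1 (106 ± 16.8), Cpox (40.7 ± 11.2), Fech (31.5 ± 0.42), Urod (20.4 ± 2.44), Alad (19.4 ± 0.977), Alas1 (16.9 ± 3.4), Ppox (8.51 ± 1.43), Uros (7.84 ± 0.169) and Blvrb (3.23 ± 0.601; SD, n = 3). Among neighbours in that order Urod and Alad, Alad and Alas1, and Ppox and Uros overlapped. In control cells the order was the same except that Alas1 (21.1 ± 2.32) stood at rank 4, before Urod (18.7 ± 1.42) and Alad (18.5 ± 1.76), with the values of Fech, Alas1, Urod and Alad overlapping from neighbour to neighbour. Hmox1 and Cpox overlapped there as well (80.9 ± 59.3 and 44.1 ± 2.20), as did Ppox and Uros (6.01 ± 0.0599 and 5.76 ± 0.353). Uros, Ppox and Blvrb were the lowest members in both groups.

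The genes around the enzymes were counted in lists chosen by function, on the same fit. Of 22 tested carriers and processing partners of heme and its precursors (24 listed), 0 were called in limma, and 2 fell in the blocked fit, which called 3.82% of all genes as lower. Among these was Hccs, which attaches heme to cytochrome c and had 8.27, 7.51 and 8.09 FPKM in GSK4112 cells, against 11.1, 9.82 and 11.1 FPKM in control cells (adjusted p = 0.101, and 0.0464 with the block). Its groups were apart. The groups were apart in 4 of the list as higher and in 3 as lower, where all genes gave 15.7% and 7.9%, and the list's median log2 difference was 0.03. Slc48a1, a carrier that brings heme out of endosomes and lysosomes, was chosen after its values were seen and had 31.2, 26.5 and 29.2 FPKM in GSK4112 cells, against 22.6, 25.9 and 22.5 FPKM in control cells (adjusted p = 0.223 in limma).

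Of 15 tested heme sensors and regulators of Alas1 and Hmox1 (18 listed), 1 fell, against 0.624% of all genes called as lower. It was Foxo1, a factor that acts on Alas1 in mouse liver, with 9.90, 9.39 and 10.0 FPKM in GSK4112 cells, against 25.9, 21.3 and 27.6 FPKM in control cells (log2 difference -1.26 ± 0.109, adjusted p = 0.0111 in limma). With the block 1 rose and 2 fell, against 3.07% of all genes higher and 3.82% lower. Beside Foxo1 these were the small MAF genes, whose proteins pair with BACH1 and NRF2. Mafg had 27.1, 32.2 and 30.5 FPKM in GSK4112 cells, against 17.6, 24.2 and 23.7 FPKM in control cells (adjusted p = 0.183, and 0.0388 with the block). Mafk had 17.9, 11.1 and 13.4 FPKM in GSK4112 cells, against 26.1, 17 and 18.7 FPKM in control cells (adjusted p = 0.291, and 0.0207 with the block), and its groups overlapped. Nr1d1, a REV-ERB receptor gene named outside the rule and after its values were seen, had 12.0, 11.8 and 11.5 FPKM in GSK4112 cells, against 9.24, 8.64 and 9.30 FPKM in control cells (log2 difference 0.34, adjusted p = 0.0911 in limma), and the log2 difference of Nr1d2 was 0.47, not called in either fit. The groups were apart in 4 of the list as higher and in 2 as lower, where all genes gave 15.7% and 7.9%. The list's median log2 difference was 0.12, and Ppargc1a, the gene of PGC-1α, was under the filter on low values.

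Genes that NRF2 and BACH1 control together with Hmox1 in other cells gave 1 rise among 13 tested (14 listed), against 0.41% of all genes called as higher, and a median log2 difference of 0.28. Slc40a1, the iron exporter ferroportin, had 38.6, 44.2 and 39.1 FPKM in GSK4112 cells, against 15.3, 22.7 and 18.9 FPKM in control cells (log2 difference 1.08 ± 0.145, adjusted p = 0.0368 in limma). With the block 2 rose, Slc40a1 and Ftl1, against 3.07% of all genes. The light chain gene of ferritin, Ftl1, had 247, 246 and 272 FPKM in GSK4112 cells, against 127, 178 and 151 FPKM in control cells (adjusted p = 0.0641, and 0.0262 with the block). The groups were apart in 6 of the 13, all higher in GSK4112 cells, beside 15.7% of all genes. Of the macrophage markers given above, Cd68 and Ptprc were also apart and higher in GSK4112 cells, while Lyz2, Csf1r, Adgre1 and the marker sum overlapped. The part of macrophages in these results was not tested. Chosen after their values were seen, the ferritin heavy chain gene Fth1 had 1393, 1198 and 1322 FPKM in GSK4112 cells, against 691, 895 and 752 FPKM in control cells (adjusted p = 0.0734 in limma), and the quinone reductase gene Nqo1 had 12.8, 6.73 and 7.22 FPKM in GSK4112 cells, against 2.41, 5.26 and 2.79 FPKM in control cells (adjusted p = 0.134 in limma). As with Hmox1, control replicate 1 held the lowest and control replicate 2 the highest control value in Slc40a1, Ftl1, Fth1 and Nqo1, but their groups did not overlap.

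**Figure D4:**
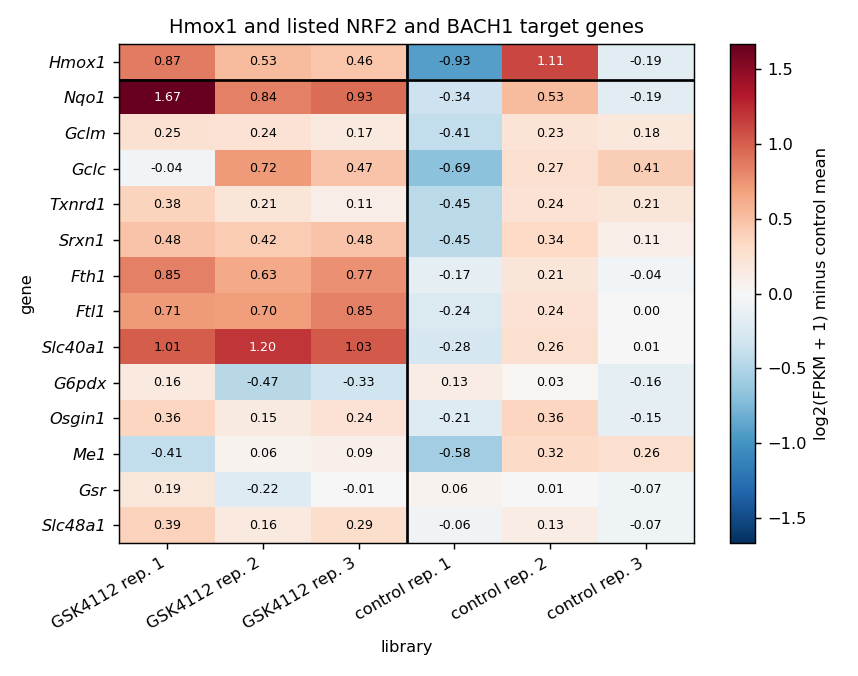
Log2(FPKM + 1) of Hmox1 and the 13 tested NRF2 and BACH1 target genes in each library, as the difference from the mean of the control libraries (red higher, blue lower). Hmox1 lies at -0.93 and 1.11 in control replicates 1 and 2, a wider span than any of the listed targets has within the control group, and Slc40a1 lies between 1.01 and 1.20 in the GSK4112 libraries.

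Among the proteins that carry heme, 1 of 23 tested rose (26 listed), against 0.41% of all genes called as higher, and the median log2 difference was -0.07. It was Cybrd1, a ferric reductase of the cytochrome b561 family, with 6.05, 8.97 and 7.50 FPKM in GSK4112 cells, against 2.14, 1.66 and 1.55 FPKM in control cells (log2 difference 1.6 ± 0.157, adjusted p = 0.0154 in limma). With the block 2 rose and 2 fell, against 3.07% of all genes higher and 3.82% lower. The groups were apart in 2 as higher and in 4 as lower, where all genes gave 15.7% and 7.9%. Cyp1b1, a P450 of estrogen and xenobiotic metabolism, rose with the block (71.2, 179 and 162 FPKM in GSK4112 cells, against 44.1, 114 and 110 FPKM in control cells; adjusted p = 0.546, and 0.0163 with the block). The prostanoid genes Ptgis, prostacyclin synthase (6.50, 4.52 and 4.71 FPKM in GSK4112 cells, against 15.0, 8.15 and 7.91 FPKM in control cells; adjusted p = 0.176, and 0.0152 with the block), and Ptgs2, cyclooxygenase 2 (7.4, 2.19 and 1.70 FPKM in GSK4112 cells, against 12.0, 3.12 and 3.73 FPKM in control cells; adjusted p = 0.63, and 0.0365 with the block), fell with the block. The groups of Cyp1b1 and Ptgs2 overlapped, and in both replicate 1 of each group stood apart from replicates 2 and 3. The calls of Foxo1, Slc40a1 and Cybrd1 each ended without GSK4112 replicate 2 (adjusted p = 0.0812, 0.2 and 0.0812 in limma), without GSK4112 replicate 3 (0.107, 0.191 and 0.118) and without control replicate 3 (0.0592, 0.141 and 0.0775). That of Slc40a1 also ended without GSK4112 replicate 1 (0.0508), and those of Slc40a1 and Cybrd1 without control replicate 2 (0.0582 and 0.0789) and without a filter on low values (0.0922 and 0.055).

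**Figure D5:**
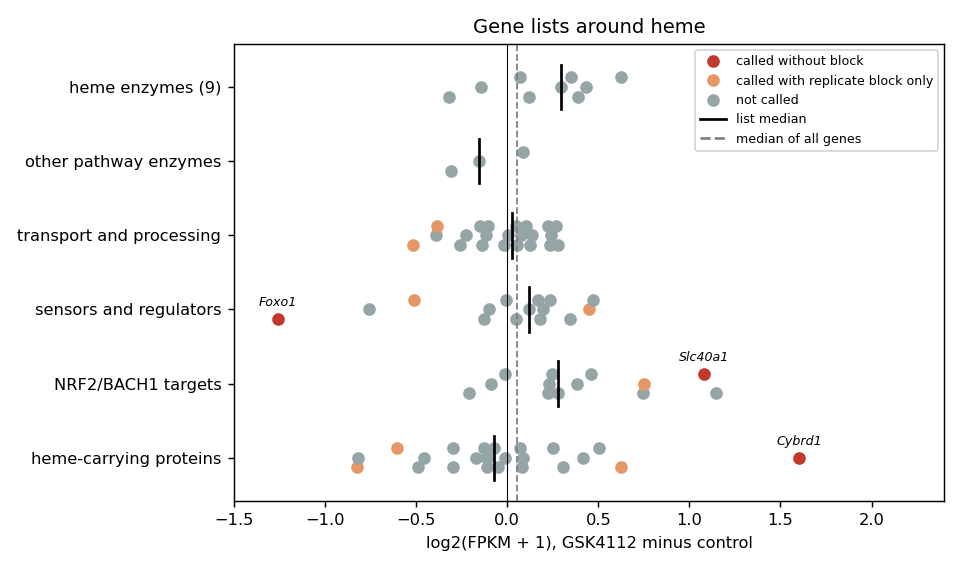
Log2 difference, GSK4112 minus control, of every tested gene in the 9 heme enzymes and in the 5 lists around them, 1 point per gene, with the black bar at the list median and the dashed line at the median of all genes (0.05). Foxo1, Slc40a1 and Cybrd1 (red) were called without the block, and the 9 heme enzymes lie between -0.32 and 0.62 with none called.

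As a description over 6 libraries, the tested genes with named symbols whose log2(FPKM + 1) was most like that of Alas1 were Nsmce3, Fez2 and Zyx (Pearson r of 0.998, 0.995 and 0.994), and those most like Hmox1 were Fgfr1, Lrrc61 and Nacc2 (r of 0.988, 0.976 and 0.976). Zyx, which encodes the focal adhesion protein zyxin, had 47.5, 31.9 and 36.9 FPKM in GSK4112 cells, against 57.5, 52.0 and 44.0 FPKM in control cells. The ranking ran over 10827 genes and the same 6 libraries for each, so it carries no test.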

How the data were processed

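RNA was measured by sequencing in 3 GSK4112 and 3 control libraries, grouped by the sample titles. The deposited table gives FPKM per Ensembl gene in a column per library, a unit taken from the name the authors gave the table. The build is GRCm38, per the submitters' processing notes. Not given in the sources used here are the aligner, counter, annotation release and strand. No dose is printed, as the labels' unit for it is not a concentration. Symbols and positions came from GENCODE M21, which held 27098 of 27151 identifiers.

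FPKM times exon length gave whole fragments (within 0.01) for 90.4 to 90.7% of values. Genes averaging 1 FPKM or more were tested with limma 3.58.1 (R 4.3.3, variance trend, 2-sided) on log2(FPKM + 1), a scale that understates changes of low genes, and called at a Benjamini-Hochberg adjusted p under 0.05. The script was tested on simulated data. Transcripts were compared with blastn 2.17.0.

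Same-numbered libraries deviated from their group means together (correlations of 0.665, 0.326 and 0.213), all above 0.1. The main fit used the group only, and pairing by replicate number entered only through the replicate block. No label gives this pairing, and GSK4112 replicate 2 with control replicate 3 (0.53) and GSK4112 replicate 3 with control replicate 2 (0.357) correlated more than the same-numbered pairs 2 and 3. The replicate block is an alternative. Others were pseudocounts, filters, scalings, weights, a robust fit, limma-voom on recovered fragments and left-out libraries.

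The genes named were all 9 enzymes, the remaining pathway genes, and from each list those called with or without the block, except for some results that are not reported here. Nr1d1, Nr1d2, Slc48a1, Fth1, Nqo1, marker genes and genes sharing exons were named outside that rule. Members and lists were chosen with earlier results of these data known.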

Additional observations from a re-analysis of the deposited data

How the results depend on the processing

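The 9 heme enzyme genes kept the direction of their difference in all 161 values that the 18 alternatives gave, and 158 stayed on the same side of the threshold. The exceptions came with sample weights, which called 2 of the 9 as higher (Uros, adjusted p = 0.0246, and Ppox, 0.0409, in limma), and without both replicate 1 libraries, which called 1 (Ppox). With the replicate block 0 of the 9 were called, and leaving out single libraries gave 0 each time. Over all genes 126 were called. The count was 26 without a filter on low values, 70 with TPM scaling, 830 with sample weights, 839 with the replicate block and 837 without both replicate 1 libraries, and it ran from 0 to 149 when single libraries were left out, with 1219, 1315 and 1841 genes at an unadjusted p under 0.05 where it was 0 in limma (without GSK4112 replicate 2, GSK4112 replicate 3 and control replicate 3). Sample weights turned the split to 470 higher and 360 lower, against 50 higher and 76 lower, while scaling by median ratios called 43 as higher and 114 as lower. The cause was not tested. With 3 libraries per group the 95% intervals of the 9 genes are wide, and those of Alas1 and Hmox1 include both no difference and a difference of over 0.6 on the log2 scale. Of the 9, Blvrb had the fewest fragments, 79 in its lowest library.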
